A study of Zea mays with 217 samples.

Results

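LHY1 (Zm00001d024546) and ELF3 (Zm00001d044232, also named PCO135758) were the maize proteins of the LHY and ELF3 families among the 104 transcription factors (TFs) profiled by ChIP-seq. Their targets were taken by gene identifier in the deposited table of TFs and target genes, where LHY1 accounted for 2519 and ELF3 for 2969 of the 272627 listed pairs. Each protein was expressed from a plasmid in leaf protoplasts of the inbred line B73, which are mesophyll cells freed of their walls, and the bound DNA was pulled down with streptavidin through a biotinylated tag. LHY1 had 2 of the 217 libraries and ELF3 had 3, and the other 102 TFs were profiled in the same way. The seedlings were 1 to 2 weeks old per the sample labels and grew under equal lengths of light and dark. The sources used here do not give the time of day at which the leaves were taken. The tagged proteins were made from plasmids and not from the rhythmic native genes, which limits the protoplasts as a model of binding through the day.

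The circadian clock of plants is a loop of repressors that follow each other through the day. In Arabidopsis, LHY is a MYB-like factor of the morning that binds a short A and T rich element in the promoters of evening genes. ELF3 accumulates in the evening, where it holds together the evening complex with ELF4 and the DNA-binding protein LUX, and it reaches DNA through LUX because it has no DNA-binding domain of the usual kind. Genes of pseudo-response regulators (PRR) are known targets of both arms of the Arabidopsis clock. CONSTANS-like (COL) proteins of other plants have been linked to flowering and photoperiod, and ZIM proteins include the JAZ repressors of jasmonate signalling.

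The cloned reading frames define which proteins were pulled down. The gene-specific parts of the cloning primers are shown for this reason, from 5′ to 3′, without the vector tails and with the start codon in capitals in the forward primers.
LHY1 forward: ATGccggctaggggagaggg
LHY1 reverse: tgttgatgcttcactatcaagacga
ELF3 forward: ATGacgaggggaggcggtgg
ELF3 reverse: cgaatcattttggttcctctccat

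Each listed pair carried 1 p-value from TIP, a probabilistic score of how the peaks near a gene start fit the typical binding profile of the TF. Replicates are pooled in it, so no value has a replicate error and each comparison below is a description over TFs or genes, without a test. The p-values of a TF are relative to its own profile, and comparisons between TFs are therefore given mainly as ranks. The number of TFs that list a gene is called its in-degree. Over the 20067 target genes the median in-degree was 5. Read depth was not compared between TFs, so its part in the number of targets was not tested.

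LHY1 had a shorter list with more very low p-values, and ELF3 had a longer list whose p-values were less extreme. LHY1 listed 12.6% of all target genes and ranked 75th of the 104 TFs by number of targets, while ELF3 listed 14.8% and ranked 41st. The median of the other 102 TFs was 2854.5 targets. With a p of 0.001 or less, LHY1 kept 958 targets (4.77% of all target genes, 22nd) and ELF3 kept 988 (4.92%, 14th), against a median of 802 for the other TFs. At 1e-05 or less the counts were 423 (2.11%) for LHY1 and 382 (1.90%) for ELF3. Further down the order of p-values the 2 TFs separated. A p of 1e-10 or less was found for 115 targets of LHY1 and 47 of ELF3, against a median of 37.5 for the other TFs, and a p of 1e-20 or less for 28 targets of LHY1 and 4 of ELF3. LHY1 had 10 targets with a p of 1e-30 or less and ELF3 had none. The plot of p-values by rank shows the gap between both TFs closing as the rank grows and then reversing. At rank 632 the -log10 p was 4.01 for LHY1 and 3.97 for ELF3, and at rank 1416 it was 2.19 and 2.38.

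**Figure D1:**
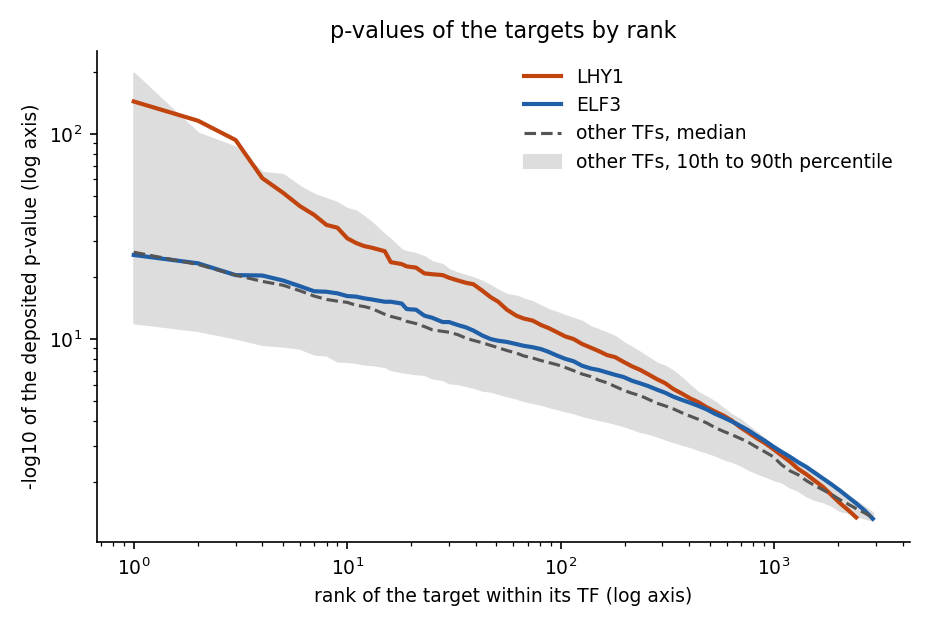
Deposited p-values of the targets of LHY1 and ELF3 as -log10 p (log axis) against the rank of the target within its TF (log axis), with the median and the range from the 10th to the 90th percentile of the 102 other TFs. LHY1 lies far above the median over its first 100 targets and ELF3 follows the median closely there, and both end near each other at a p of 0.05.

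The lowest p-values of LHY1 were on genes that most TFs list, but at several of them its p was far below that of those TFs. The p-values are relative to the profile of each TF, so such gaps, here and below, do not compare binding strength. Its first target, Zm00001d005978, had a p of 2.81e-144 and an in-degree of 85, and the next TF at this gene was HB34, a homeobox TF, with 3.36e-20. ELF3 listed the same gene with a p of 1.11e-08. The second, Zm00001d052189, had a p of 7.54e-117 for LHY1 and 1.54e-12 for ELF3. HB38 was the closest other TF there (2.31e-52). At Zm00001d017951 the p was 3.68e-94 for LHY1 and 1.60e-05 for ELF3, and the next TF was MYBR87 with 2.28e-12. The gene with the following identifier, Zm00001d017952, was the fifth target of LHY1 (2.18e-52) and also ranked LHY1 first. Identifiers of this annotation follow the order along the chromosome, so both genes may be reached from 1 shared region, which was not tested. The exception among the first 5 was Zm00001d020714, a gene of the heat shock factor (HSF) family with an in-degree of 95. LHY1 had a p of 1.14e-61 at it and was second to EREB34 (6.05e-66).

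LHY1 had the lowest p of all TFs at 113 target genes, and ELF3 at 44, against a median of 160 for the other TFs. These counts ranked 62nd and 91st, so neither TF led at many genes. They include genes listed by no other TF, which were 8 for LHY1 and 1 for ELF3, against a median of 23 for the other TFs. A lead of 10 or more powers of 10 over the next TF was found at 10 genes for LHY1 (25th) and at none for ELF3, and the median of the other TFs was 1. Within its own first 100 targets, LHY1 was the TF with the lowest p at 24 genes and ELF3 at 3, against a median of 17 for the other TFs with 100 or more targets. Of the 113 genes led by LHY1, 50 were also listed by ELF3. Of the 44 genes led by ELF3, 4 were also listed by LHY1. Over all target genes ELF3 listed 14.8% and LHY1 12.6%. The in-degrees of the genes led by each TF were not compared.

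The lowest p-values of ELF3 fell on genes where other TFs were as low or lower. Zm00001d008540 came first with a p of 2.16e-26 for ELF3 and 7.70e-08 for LHY1, and ELF3 was the third of the 90 TFs at this gene, behind MYB62 (1.04e-43) among others. Zm00001d036736, which is assigned to the bZIP family, had a p of 4.28e-24 and ranked ELF3 second of 95 TFs. The next were Zm00001d038050 (3.28e-21), Zm00001d039032 of the WRKY family (3.80e-21) and Zm00001d026490 (5.48e-20), where ELF3 was 14th, 8th and 9th by p. All 5 genes were also targets of LHY1. The gene with the identifier before Zm00001d038050 was the sixth target of ELF3 (8.60e-19), again a neighbouring pair. The share of targets with a neighbour in identifier order in the same list was 39.1% for LHY1 and 43.1% for ELF3, near the median of 41.6% for the other TFs.

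LHY1 and ELF3 shared 1619 targets (8.07% of all target genes), while 900 were listed by LHY1 and not ELF3 and 1350 by ELF3 and not LHY1. The shared genes were 64.3% of the LHY1 list and 54.5% of the ELF3 list. The Jaccard index, which is the shared genes over the union of 3869 genes, was 0.418. This placed the pair 69th of the 5356 pairs of TFs, whose median was 0.235. The sources used here do not say whether both TFs were called against the same input library. Both TFs listed 478 genes with a p of 0.001 or less (2.38% of all target genes) and 173 with a p of 1e-05 or less (0.862%). No gene was listed by LHY1 and ELF3 alone.

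Sharing was densest where binding was called with the lowest p. ELF3 listed 98 of the first 100 targets of LHY1, and LHY1 listed 96 of the first 100 of ELF3. When each list was cut into deciles by p, ELF3 listed 93.7% of the first decile of LHY1 targets and 40.2% of the last. LHY1 listed 87.5% of the first decile of ELF3 targets and 32.4% of the last. In-degree moved along with this order. Its median was 79.5 in the first decile of LHY1 and 82 in that of ELF3, against 27 and 26 in the last deciles. Genes of such in-degrees were listed by most TFs. The median other TF listed 66.3% of genes with an in-degree of 50 to 83 and 93.8% of those with 84 to 99. LHY1 listed 75.4% and 99.5% of them, and ELF3 85.2% and 99.1%. Over the 1619 shared genes the p-values of both TFs had a Spearman correlation of 0.417 across genes, which are not independent replicates and share their accessibility and in-degree.

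**Figure D2:**
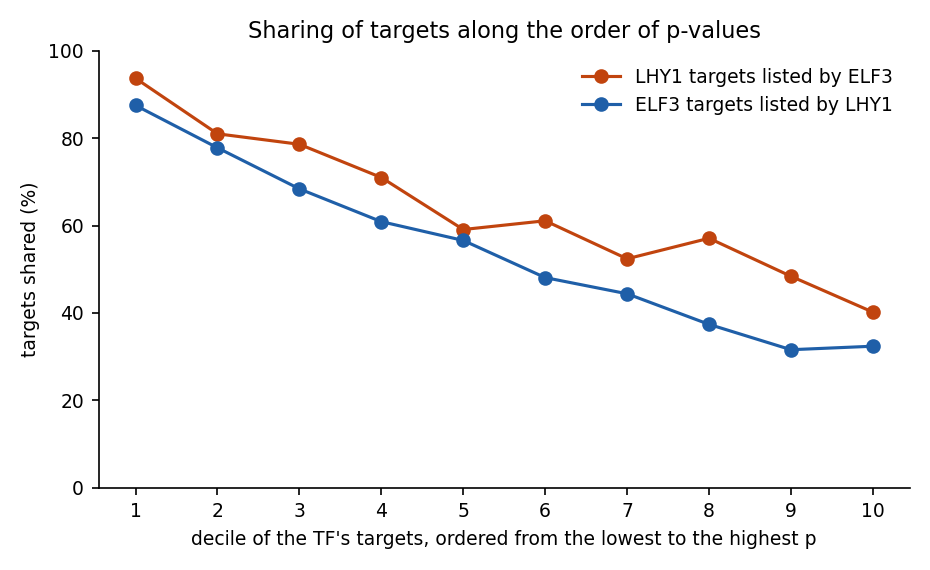
Share of LHY1 targets that ELF3 also listed, and of ELF3 targets that LHY1 also listed (in percent), by decile of each list in order of p. The share is 93.7% in the first decile of LHY1 targets and 40.2% in the last, and 87.5% and 32.4% for ELF3.

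Shared and single targets differed in their in-degree, which counts LHY1 and ELF3 as well. Genes found in both of any pair of lists tend to be widely listed ones, and no other pair was compared in this way. Shared targets had a median in-degree of 59 with quartiles of 42 and 75. The median was 23 (quartiles 12 and 37) for LHY1 targets without ELF3 and 29 (16.2 and 43) for ELF3 targets without LHY1. The p-values followed the same split. LHY1 had a median p of 0.0013 at shared targets and 0.0111 at its other targets, and ELF3 had 0.00143 and 0.0126.

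**Figure D3:**
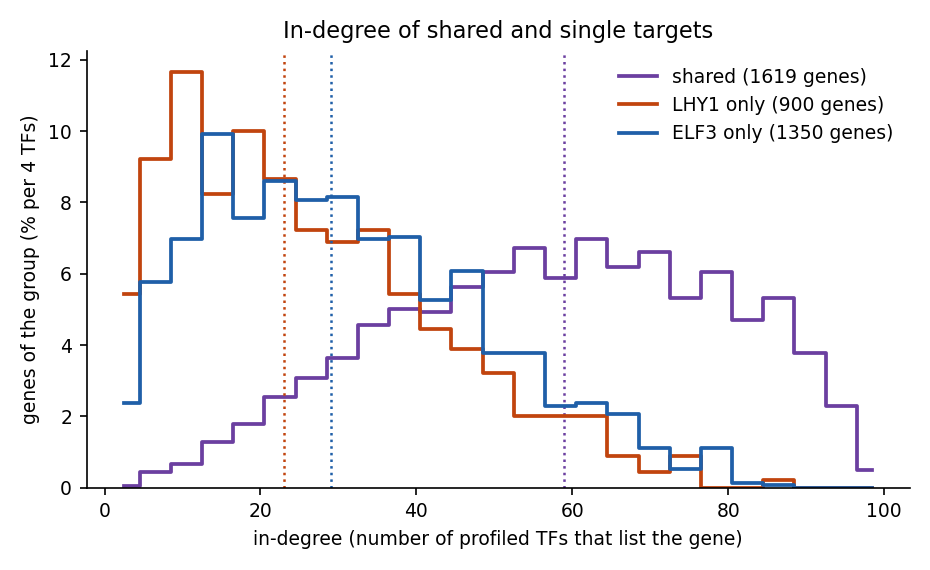
In-degree of the 1619 shared targets, the 900 LHY1 targets not listed by ELF3 and the 1350 ELF3 targets not listed by LHY1, as the percent of each group per 4 TFs, with dotted lines at the medians of 59, 23 and 29. The shared genes extend over high in-degrees and both single groups peak below 30.

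Both TFs drew more on widely listed genes than most TFs did. The median in-degree was 46 over LHY1 targets (6th of 104) and 44 over ELF3 targets (12th), against a median of 39 over the other TFs. Of the 1459 genes with an in-degree of 50 or more, LHY1 listed 1152 (79.0%) and ELF3 listed 1273 (87.3%), where the median of the other TFs was 70.0%. Both listed 1052 of them and neither listed 86. HB66, the gene of a profiled homeobox TF, had the highest in-degree of those that neither listed (73). Among the 216 genes with an in-degree of 84 or more, which is the 99th percentile, LHY1 missed 1 and ELF3 missed 2. The other TFs listed a median of 202 of these genes, with an upper quartile of 211. LHY1 missed GRAS23, the gene of a GRAS family TF with an in-degree of 87, which ELF3 listed with a p of 1.78e-05. ELF3 missed Zm00001d017275 and Zm00001d033623, at which LHY1 had a p of 0.00309 and 0.00313.

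TF genes without a profile of their own were also among these 216 genes, nearly all of which both TFs listed. The 216 genes were chosen by in-degree, so listing by both TFs was close to fixed in advance. The 12 WRKY genes were listed by both, each with a p of 0.001 or less, with a median p of 2.94e-14 for LHY1 and 6.91e-10 for ELF3. The 5 MYB genes had a median p of 1.25e-05 for LHY1 and 1.77e-10 for ELF3, and 4 had a p of 0.001 or less for each TF. The 12 ERF genes, members of the ethylene response factor family, had medians of 6.46e-08 for LHY1 and 3.00e-07 for ELF3. Over all 216 genes the medians of the listed p-values were 2.59e-07 for LHY1 and 4.48e-07 for ELF3, and 181 genes for LHY1 and 203 for ELF3 had a p of 0.001 or less.

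Genes with few TFs were rare in both lists. LHY1 was the only TF of 8 genes and ELF3 of 1, against a median of 23 for the other TFs. Genes with an in-degree of 5 or less numbered 69 for LHY1 and 55 for ELF3, against a median of 160, and both TFs listed 2 of them. These 2 were C3H40, the gene of a profiled zinc finger TF (in-degree 5, p of 0.00845 for LHY1 and 0.00319 for ELF3), and Zm00001d038180 (in-degree 3, 0.00915 and 0.032), whose other TF was bHLH47. The lowest p of LHY1 among such genes was 0.000262 at Zm00001d038392, which was otherwise listed by COL8 only. Zm00001d011525 (0.000362) was shared with ALF7 only, and the next were Zm00001d047208 (0.000396), Zm00001d046746 (0.000655) and DOF22 (0.000825). For ELF3, Zm00001d043107 had a p of 4.18e-06 and an in-degree of 4, and its next TF was NAC49 with 0.0127. Zm00001d052146 followed with 3.17e-05, ahead of ALF2 with 0.00804. The remaining 3 of ELF3 were Zm00001d032923 (0.000598), Zm00001d035605 (0.00227) and Zm00001d016553 (0.00242). Zm00001d043108, next to the first of these, was the gene listed by ELF3 alone (0.0144). Likewise Zm00001d038391, next to Zm00001d038392, was among the 8 genes listed by LHY1 alone (0.0271).

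The shared targets with the lowest p for both TFs were again hub genes. Taking the larger p of both TFs at each gene, the first was Zm00001d026490, with 1.94e-24 for LHY1, 5.48e-20 for ELF3 and an in-degree of 97. The bZIP gene Zm00001d036736 came next with 6.05e-18 for LHY1 and 4.28e-24 for ELF3. EREB97, an ethylene response factor gene, had 4.48e-23 and 7.35e-18. The WRKY gene Zm00001d039532 had 5.26e-23 and 1.52e-16, and Zm00001d045051 had 6.30e-24 and 3.31e-16.

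Of the 96 profiled TF genes that were targets of any TF, LHY1 listed 38 (39.6%) and ELF3 listed 41 (42.7%), ranking 18th and 6th. The other TFs listed a median of 30 (31.2%). LHY1 listed 12.6% and ELF3 14.8% of all target genes, but the TF genes had a median in-degree of 19.5 against 5 over all target genes. Most of the TF genes reached were widely listed ones. Of the 29 TF genes with an in-degree of 50 or more, LHY1 listed 26 and ELF3 listed 25, and of the other 67, LHY1 listed 12 and ELF3 listed 16. Both listed 32 of the 96, LHY1 alone of the pair listed 6, ELF3 alone listed 9, and neither listed 49.

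The ethylene response factor genes (EREB) made up the largest group. LHY1 listed 11 of 13 and ELF3 listed 10, and 9 were common to both. Over all target genes LHY1 listed 12.6%, ELF3 14.8% and both 8.07%. The EREB genes had a median in-degree of 60, against 19.5 over the 96 TF genes, so most TFs listed many of them. EREB97 ranked 20th of the LHY1 targets and 7th of the ELF3 targets. EREB147 had a p of 7.22e-11 for LHY1 and 8.08e-12 for ELF3, EREB198 had 1.35e-08 and 1.54e-08, and EREB109 had 1.41e-05 and 1.57e-06. Other members had far lower p for ELF3. EREB34 had 0.0019 for LHY1 and 4.32e-08 for ELF3, and EREB209 had 0.00662 and 2.14e-07. EREB18 (0.0053 and 6.92e-05), EREB211 (0.0025 and 0.00105) and EREB172 (0.0287 and 0.0326) were also shared. EREB54 (9.01e-05) and EREB98 (0.0386) were listed by LHY1 and not ELF3, and EREB17 (0.00375) by ELF3 and not LHY1. EREB102 was listed by neither.

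NAC and WRKY genes, whose families are known for roles in stress and senescence, were mostly shared. Both TFs listed 8.07% of all target genes. The median in-degree was 86 over the 3 NAC genes and 67 over the 5 WRKY genes, so most TFs listed many of them. NAC23 had a p of 3.50e-19 for LHY1 and 8.81e-05 for ELF3, the widest gap of any TF gene in the plot of TF genes, and NAC49 had 5.12e-11 and 3.46e-07. NAC109 differed little (0.000149 and 0.000139). WRKY95 had 0.00085 for LHY1 and 1.62e-08 for ELF3, WRKY94 had 3.36e-07 and 3.70e-05, and WRKY82 had 0.00081 and 0.000553. WRKY25 and WRKY53, with in-degrees of 15 and 13, were listed by neither.

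**Figure D4:**
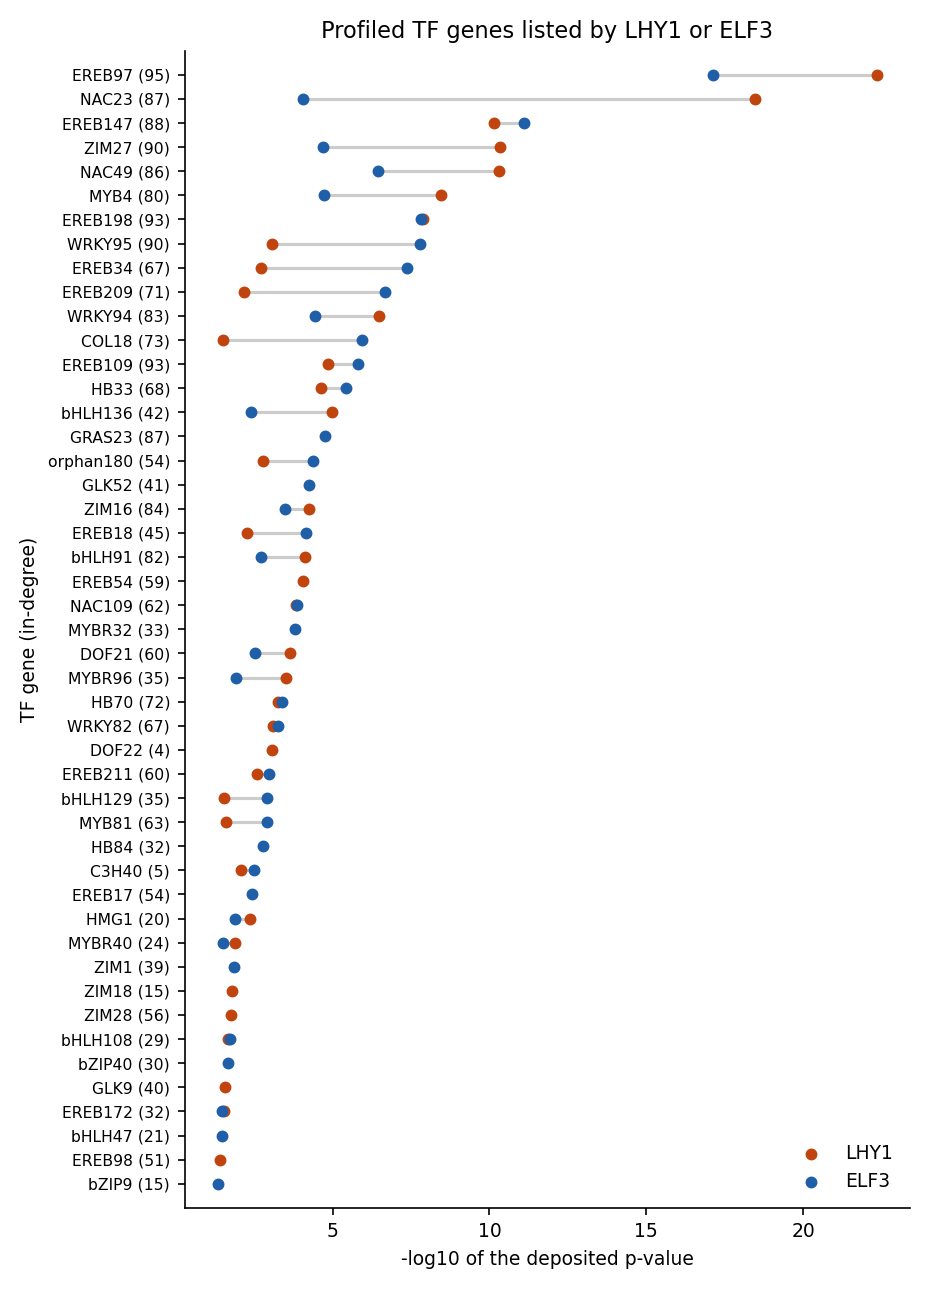
The 47 profiled TF genes listed by LHY1 or ELF3, with -log10 of the deposited p-value for each TF and the in-degree in parentheses. EREB97 lies farthest to the right for both TFs, and the longest lines toward LHY1 are those of NAC23, ZIM27 and EREB97, while those toward ELF3 are of WRKY95, EREB34, EREB209 and COL18. The p-values are relative to the profile of each TF, so a line need not point to the better rank. EREB97 ranked 20th for LHY1 and 7th for ELF3.

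The clock and COL genes were reached in part. The PRR-family gene orphan180 (Zm00001d021291) was listed by both, with a p of 0.00161 for LHY1 (rank 1036 of its targets) and 4.27e-05 for ELF3 (rank 519). This gene was no particular target of the pair, since 54 TFs listed it, among them all 6 COL TFs and 5 of the 6 ZIM TFs, and ELF3 stood 13th and LHY1 24th by p. Of the 5 COL genes that were targets of any TF, COL18 alone was listed, with a p of 0.031 for LHY1 and 1.14e-06 for ELF3. COL2, COL3, COL7 and COL13 were listed by neither, at in-degrees between 2 and 27, against 73 for COL18. Over all target genes LHY1 listed 12.6%, ELF3 14.8% and both 8.07%, and 5 genes are too few to set against these shares. Neither TF listed its own gene or that of the other. Peaks in the locus of the expressed TF were removed by the authors because of plasmid reads, so a self-target could not be seen.

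The ZIM genes with the lowest p were shared. LHY1 listed 4 of the 6 ZIM genes and ELF3 listed 3, against 12.6% and 14.8% of all target genes. The ZIM genes had a median in-degree of 47.5, with 90 for ZIM27 and 84 for ZIM16. ZIM27 had a p of 4.64e-11 for LHY1 and 2.09e-05 for ELF3, and ZIM16 had 5.61e-05 and 0.000328. ZIM18 (0.0156) and ZIM28 (0.0175) were in the LHY1 list only, and ZIM1 (0.0138) in the ELF3 list only, while ZIM3 was in neither. All 3 of these single listings had a p above 0.01.

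Of the 7 GLK genes, of which GLK1 and GLK2 drive chloroplast development, LHY1 listed GLK9 (0.0261) and ELF3 listed GLK52 (5.50e-05). A count of 1 of 7 for each TF is near its share of all target genes (12.6% for LHY1 and 14.8% for ELF3). The genes GLK1, GLK2, GLK11, GLK25 and GLK53 were listed by neither. Among the 8 MYB-related genes, the group to which LHY proteins are related, MYBR96 had a p of 0.000303 for LHY1 and 0.0123 for ELF3 and MYBR40 had 0.0129 and 0.0318. MYBR32 was listed by ELF3 only (0.000154), and MYBR17, MYBR26, MYBR43, MYBR64 and MYBR87 by neither.

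Of the remaining TF genes, MYB4 had a p of 3.57e-09 for LHY1 and 1.89e-05 for ELF3, and MYB81 had 0.0248 and 0.00121. The homeobox genes HB33 (2.34e-05 and 3.73e-06) and HB70 (0.000563 and 0.000422) were shared, and HB84 (0.0016) was in the ELF3 list only. Of the bHLH genes, bHLH136 had 1.01e-05 for LHY1 and 0.00403 for ELF3, bHLH91 had 7.61e-05 and 0.00194, bHLH129 had 0.0297 and 0.00121, and bHLH108 had 0.0219 and 0.0183. bHLH47 (0.0344), bZIP40 (0.0224) and bZIP9 (0.0461) were listed by ELF3 alone of the pair. DOF21 (0.000222 and 0.00305) and HMG1 (0.00438 and 0.0131) were shared. DOF22 was in the LHY1 list only, and it is the TF gene with the lowest in-degree (4) in either list.

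Few TFs listed the genes of LHY1 and ELF3 themselves, though their in-degrees lay near the median of 5 over all target genes. The median over the 96 TF genes was 19.5. The LHY1 gene had an in-degree of 4, and 20 of the 96 TF genes were lower. The 4 TFs were HB84 with a p of 7.31e-30, WRKY95 with 9.74e-30, MYB56 with 2.04e-09 and bHLH108 with 2.63e-05. The LHY1 gene was the 7th of 2820 targets of WRKY95 and the 17th of 2479 targets of HB84 by p, so it stood near the top of both lists. The ELF3 gene had an in-degree of 7, with 29 TF genes lower. It was listed by DOF17 (2.08e-06), MYBR17 (0.00015), DOF30 (0.00061), DOF22 (0.00681), MYB37 (0.0282), EREB18 (0.0419) and EREB17 (0.047), and 3 of these 7 were DOF zinc finger TFs of the 4 profiled. No TF listed both genes. The PRR-family TF orphan180 listed neither. Pairs in which each TF listed the gene of the other were LHY1 with WRKY95 and with bHLH108, and ELF3 with EREB18 and with EREB17.

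Over all listed pairs, ZIM28 had the most similar targets to LHY1 and ZIM18 to ELF3. ZIM proteins held 5 of the first 10 places for LHY1 and 3 of the first 10 for ELF3. These places changed when widely listed genes were left out, as given below. For LHY1 the highest Jaccard index was that of ZIM28 (0.428), followed by ELF3 (0.418), ZIM27 (0.398), ZIM16 (0.397), MAB16 (0.396), ZIM18 (0.395), bHLH47 (0.373), ZIM3 (0.370), MYBR32 (0.369) and C3H40 (0.368). For ELF3 it was that of ZIM18 (0.462), followed by ZIM27 (0.441), ZIM28 (0.434), MAB16 (0.430), LHY1 (0.418), WRKY53 (0.412), MYB81 (0.410), NAC23 (0.405), MYB37 (0.402) and MYBR32 (0.402). The 6 ZIM TFs had a median of 0.396 with LHY1 and 0.414 with ELF3, against medians of 0.288 and 0.314 over the other 102 TFs, and ZIM1 was the lowest of them (0.292 and 0.286). No replicate error stands behind neighbouring places, and steps as small as the 0.001 between ZIM27 and ZIM16 do not order them.

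**Figure D5:**
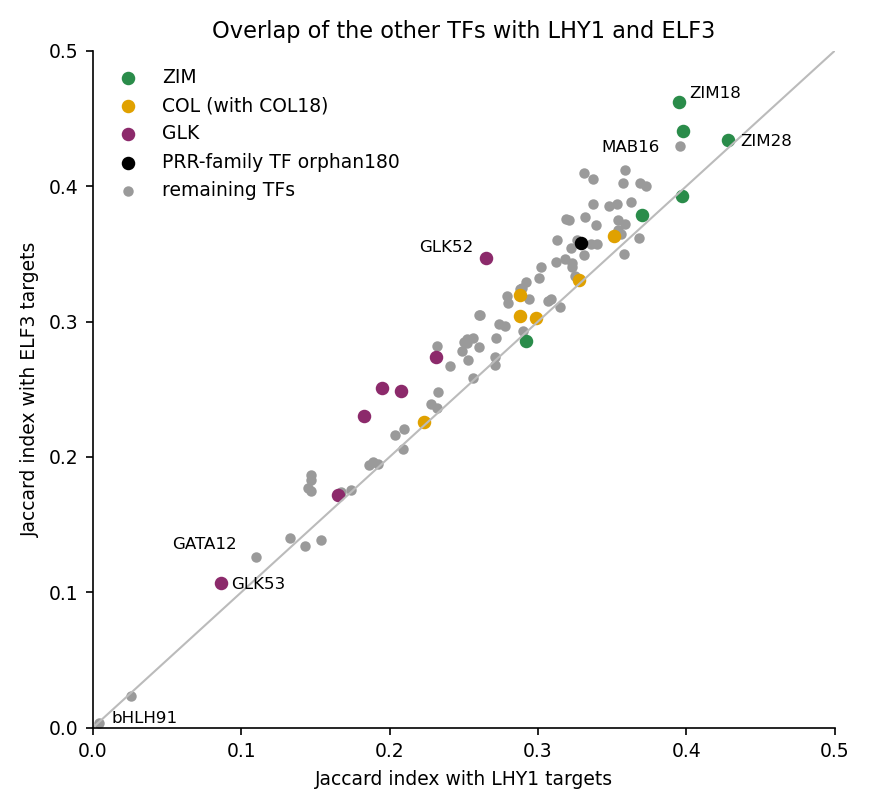
Jaccard index of the target lists of 102 TFs with ELF3 (vertical axis) against that with LHY1 (horizontal axis), with the line of equality and the ZIM, COL, GLK and PRR families in colour. The highest values on both axes belong to ZIM TFs, and 91 of the 102 TFs lie above the line.

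Most TFs were nearer to ELF3 than to LHY1, since 91 of 102 had the higher Jaccard index with ELF3, which also had the longer list. The 11 TFs nearer to LHY1 included ZIM16 (0.397 with LHY1 and 0.393 with ELF3), ZIM1 (0.292 and 0.286), HB33 (0.358 and 0.350) and C3H40 (0.368 and 0.362). The PRR-family and COL TFs were outside the first 10 places of both. The PRR-family TF orphan180 ranked 30th for both, with 0.329 for LHY1 and 0.358 for ELF3, above the medians of 0.288 and 0.314. The 6 COL TFs lay between 0.223 and 0.351 for LHY1 and between 0.226 and 0.363 for ELF3, with COL13 the nearest (20th and 26th), and COL7 had 0.288 and 0.320. bHLH172 had 0.272 and 0.288. The lowest values were those of bHLH91 and MYBR40, which had 21 and 161 targets, and then of GLK53 with 0.0863 for LHY1 and 0.107 for ELF3 despite its 3135 targets.

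The pair was also compared over genes with few TFs. When genes with an in-degree above 20 were left out, 470 targets remained for LHY1 and 509 for ELF3, and 69 were shared. Their Jaccard index was then 0.0758, against a median of 0.0386 between LHY1 and the other TFs and 0.0466 between ELF3 and the other TFs. Of the ZIM TFs, ZIM16 was 2nd, ZIM3 9th, ZIM28 10th and ZIM18 25th for LHY1. For ELF3, ZIM18 was 5th, ZIM16 18th, ZIM28 20th and ZIM3 26th, and ZIM27 was 12th for both. ZIM1 was far lower, at 45th for LHY1 (0.0437) and 85th for ELF3 (0.0308). ELF3 was 8th for LHY1, behind C3H40 (0.0992), ZIM16 (0.0867) and ALF2 (0.0851) among others. LHY1 was 11th for ELF3, behind MYB37 (0.0862), C3H40 (0.0840) and MYB81 (0.0838) among others. With p limited to 0.001 or less, in contrast, ELF3 was the nearest TF to LHY1 (0.326), while ZIM18 stayed the nearest to ELF3 (0.403).

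The targets on which LHY1 and ELF3 differed were listed unevenly by the other TFs. Over the 102 TFs the share of the LHY1 targets without ELF3 that a TF listed was a median of 4.80 points below its share of the ELF3 targets without LHY1, which had the higher in-degree. GLK52 lay farthest from 0, with 23.2% of the targets of LHY1 without ELF3 and 44.4% of those of ELF3 without LHY1. MYB81 had 26.7% and 44.7%, GLK25 had 17.7% and 33.9%, NAC23 had 30.1% and 45.6%, and ZIM18 had 31.7% and 45.4%. Most TFs listed the larger share on the ELF3 side, and among families of 3 or more TFs this held for all members of the GLK (7), MYB (9), bZIP (6), WRKY (5), DOF (4) and NAC (3) families. On the LHY1 side stood 18 TFs, led by COL3 (37.7% and 34.1%), ZIM16 (36.2% and 32.7%), EREB198 (33.8% and 30.7%) and COL2 (35.6% and 32.4%). They included 7 of the 14 EREB TFs and 3 of the 6 COL TFs.

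Of 8 genes of C4 photosynthesis, both TFs listed the 2 of carbonic anhydrase, the enzyme that hydrates carbon dioxide before its first fixation. Over all target genes LHY1 listed 12.6%, ELF3 14.8% and both 8.07%. CA1 had a p of 0.00478 for LHY1 and 0.00259 for ELF3, and CA2 had 2.23e-05 and 0.035. CA1 had an in-degree of 96 and CA2 of 50. PEPC, PPDK, NADP-MDH, NADP-ME, RbCS1 and RbCS2 were listed by neither, nor was Lhca, which encodes a light-harvesting protein of photosystem I. PPDK, with an in-degree of 34, was the most widely listed of these, and NADP-ME had an in-degree of 0, so no TF listed it.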

How the data were processed

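The authors aligned ChIP-seq reads to B73 RefGen_v4 with Bowtie2 2.2.5, filtered them with SAMtools 1.3, called peaks reproducible between replicates against input, removed peaks in the locus of the expressed TF and scored genes with TIP. The authors deposited the pairs with a TIP p-value each, replicates pooled. The study states a threshold of 5% FDR, but the deposited p-values lie between 0 and 0.05 and are labelled as plain p-values. Whether they are adjusted is not stated. The sources used here give no version of TIP. Read counts are not in this table, so the precision of a p-value is not known.

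Rows were taken by gene identifier, and every listed pair was used. Computed were ranks over TFs, in-degrees, overlaps, Jaccard indices and Spearman's correlation, without tests (Python 3.11.15, numpy 2.4.6, pandas 2.3.3, scipy 1.17.1). The functions were tested on simulated lists. A p of 0 was set to the smallest p above 0 for leads and plots. TF names and families came from the study's table of profiled TFs, families of other hub genes from its hub list, and primers from its cloning table.

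Named were every profiled TF gene that either TF lists or that lists either gene, the ZIM, GLK, MYBR, COL and PRR families in full, the 10 TFs with the highest Jaccard index, the 5 targets with the lowest p in all, among genes with an in-degree of 5 or less and among shared targets, and the C4 genes. Other TFs and genes (HB66, the genes beside a named one, the TFs with the most unequal shares, the lowest Jaccard indices and the nearest TFs by low in-degree) were named once their values had been seen. The members and lists were chosen with earlier results of these data known. The reference table of NAM-5.0 names 1 of the 20067 target genes by its identifier, so clock genes outside the profiled TFs and promoter motifs were not analysed here.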

Additional observations from a re-analysis of the deposited data

How the results depend on the processing

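With p limited to 0.001 or less, LHY1 had 958 targets and ELF3 988, 478 were shared, the Jaccard index was 0.326, ELF3 ranked 1 for LHY1 and LHY1 ranked 8 for ELF3, 21 and 23 profiled TF genes were listed by LHY1 and ELF3, and the median in-degrees were 64 and 67. With 1e-05 or less these values were 423, 382, 173, 0.274, rank 1 for ELF3 and an unchanged 5 for LHY1, 8 and 10 TF genes, and 76 and 80. Fewer pairs remain at these limits by construction. With genes of an in-degree of at most 20 alone, the Jaccard index was 0.0758 and the ranks were 8 and 11. With the 500 lowest p of each of the 101 TFs that have as many, they were 0.292, 1 and 7. The overlap coefficient was 0.643 (ranks 2 and 7), with MYBR64 first for both at 0.807 and 0.877, and the weighted cosine was 0.25 (ranks 1 and 6). Both are other scales than the Jaccard index. The cause of these changes in rank was not tested.

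No paired analysis was possible because the deposited table pools the replicates of each TF, and for the same reason no replicate was left out and no spread between libraries can be given.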
